A study of Mus musculus with 12 samples.

Results

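Jarid2 and 9 partner subunits of Polycomb repressive complex 2 (PRC2) were followed in the arcuate nucleus of the hypothalamus (ARC) of WT and homozygous R299Q γ2 mice. The 10 genes were taken by symbol out of the 38283 genes of the deposited table, and each symbol was present. Jarid2 was chosen because of its values in these same libraries, where it was listed at 0 in every homozygous mouse, so its levels are given as a description without a test. The other 9 members (Ezh1, Ezh2, Suz12, Eed, Rbbp4, Rbbp7, Aebp2, Mtf2 and Phf19) were chosen by their place in the complex and not by their levels.

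RNA was measured in 5 WT mice and 7 homozygous (Homo) mice, with 1 library per mouse. All were freely fed males aged 8 weeks on a C57BL/6 background. Homo mice carried the R299Q change on both alleles of Prkag2, which encodes the γ2 regulatory subunit of AMP-activated protein kinase (AMPK); the knock-in is present in every tissue and is not limited to neurons. WT mice carried neither mutant allele. The nucleus was cut out of 14 µm cryosections by laser capture, so each library holds neurons together with the glia and vessels between them, and in such bulk samples fewer cells of a type and less RNA per cell cannot be told apart. Values are FPKM, fragments per length of transcript and per depth of the library. On that scale levels of different genes were set side by side. Whether the amplification before sequencing kept their proportions was not tested.

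PRC2 is the enzyme complex that methylates lysine 27 of histone H3, a mark of genes kept silent. EZH1 or EZH2 is its catalytic subunit, SUZ12 is the scaffold, EED reads the mark that the complex has already made, and RBBP4 or RBBP7 holds the histones. Accessory proteins define alternative forms: JARID2 and AEBP2 join one form, and the Polycomb-like proteins MTF2, PHF19 and PHF1 join another. JARID2 belongs by sequence to the Jumonji family but lacks demethylase activity, and it helps bring the complex to chromatin. In adult neurons EZH1 is commonly the more abundant catalytic subunit, the complex keeps developmental regulators silent, and in the ARC it has been tied to the silence of Kiss1 before puberty.

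Jarid2 (ENSMUSG00000038518) lies at chr13:44729474-44921643 on the plus strand of GRCm38. GENCODE lists 16 transcripts for it, 8 of them coding, and the longest coding one has 5997 bases. RefSeq gives 2 start sites on GRCm38.p6, at chr13:44730524-44730823 and chr13:44731021-44731320 as windows of 300 bases that lie mostly upstream of each start. They are shown because they are the starts of the gene whose listed level divided the genotypes. The capitals mark CG dinucleotides, the hallmark of the CpG-rich promoters on which PRC2 is usually found, and a CG reads the same on both strands.
Jarid2 start 1: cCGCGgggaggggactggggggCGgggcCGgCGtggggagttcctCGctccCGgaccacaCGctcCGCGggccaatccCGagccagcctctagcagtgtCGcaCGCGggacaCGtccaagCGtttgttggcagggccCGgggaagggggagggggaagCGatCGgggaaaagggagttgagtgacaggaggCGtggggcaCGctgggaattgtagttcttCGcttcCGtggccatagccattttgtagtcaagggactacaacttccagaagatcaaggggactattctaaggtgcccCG
Jarid2 start 2: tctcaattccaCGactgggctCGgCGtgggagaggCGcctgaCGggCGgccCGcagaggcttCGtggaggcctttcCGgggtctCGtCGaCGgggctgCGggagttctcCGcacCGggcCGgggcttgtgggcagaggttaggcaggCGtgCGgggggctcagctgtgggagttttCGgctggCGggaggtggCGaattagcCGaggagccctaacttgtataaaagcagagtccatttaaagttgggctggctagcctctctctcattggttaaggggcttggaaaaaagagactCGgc
The first window holds 24 CG and the second 23. Of 32851 RefSeq windows of 300 bases, 19.98% hold as many as the first and 21.5% as many as the second, and the median window holds 7. All 10 members had at least 1 window, and their 14 windows ranged from 2 CG, in 1 of the Mtf2 windows, to 41, in Suz12. These counts describe the sequence alone, since no chromatin was measured here.

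Jarid2 stood at 12.7, 17.0, 27.20, 11.8 and 21.1 FPKM in WT 1 to 5 (18.0 ± 6.35, SD, n = 5). In Homo 1 to 7 it was listed at 0 in each library. The WT values spanned 2.30-fold, with an SD equal to 35.4% of the mean. In WT the gene was the fourth highest of the 10 members, between Mtf2 and Ezh1, and 73.8% of the 14017 genes with a mean of at least 1 FPKM had a lower WT mean.

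Sorted by how many genes were above 0, the libraries parted most widely into 2 sets. WT 1, WT 2 and Homo 1 to 5 had 15742 to 16467 such genes, and WT 3 to 5 with Homo 6 and 7 had 18141 to 18635. The labels name no batch for this split, though the titles of Homo 6 and 7 are worded unlike those of Homo 1 to 5. The WT titles are worded alike on both sides of it. Both sets hold libraries of both genotypes, so the rule that chose Jarid2 fixed its zeros in both. Its WT values were 12.7 and 17.0 FPKM in the first set and 27.20, 11.8 and 21.1 FPKM in the second.

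A listed 0 in a table of FPKM values can be an absence of fragments or an estimate that failed, and the table carries no status that tells these apart. Among 10441 genes of at least 1 FPKM in every WT library, Jarid2 was the only one listed at 0 in every Homo library (0.00958%), which is the property by which it was chosen. The mirror pattern, 0 in every WT and at least 1 FPKM in every Homo library, was met by 0 of 9827 genes. With the minimum of 1 FPKM dropped, 1 gene joined on each side, and both were named after their values were seen. Sspn, which encodes sarcospan, lay between 0.289 and 2.24 FPKM in WT and at 0 in every Homo library, and Serpina3m lay between 0.0527 and 1.38 FPKM in Homo and at 0 in every WT library.

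Of 3682 genes of at least 10 FPKM in every WT library, 21 were listed at 0 in 1 Homo library or more. Jarid2 was at 0 in 7 of them, and the other 20 genes were at 0 in at most 5. Only 1 of these others, AC153525.1, is annotated as coding, and it was at 0 in 1 Homo library. Zeros of other kinds were present too. The mitochondrial ribosomal RNAs mt-Rnr1 and mt-Rnr2, which every cell carries, were listed at 0 in all 12 libraries, and Mir5109 was listed at 104383 to 223467 FPKM in the set of 7 libraries, WT 1, WT 2 and Homo 1 to 5, and at 0 in the other 5. The level of Jarid2 in Homo is therefore reported only as listed at 0, and no fold change is given for it.

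The genes around Jarid2 were measured in both genotypes. Of 36 other genes annotated within 1000 kb of it, 13 were in the table and 5 reached a mean of 1 FPKM. The nearest end of Dtnbp1, which encodes dysbindin, lies 431 bases past the end of Jarid2. Dtnbp1 stood at 17.0, 7.84, 8.84, 10.9 and 11.7 FPKM in WT 1 to 5. In Homo 1 to 7 it stood at 30.9, 13.5, 8.01, 9.34, 19.2, 13.9 and 12.8 FPKM. The genotypes overlapped, and the log2 difference in log2(FPKM + 1), Homo minus WT, was 0.35 (SE 0.30, limma adjusted p = 0.919). The other 4 were Cd83, Mylip, Gmpr and Atxn1, with log2 differences of −0.02, 0.16, 0.02 and 0.04. A small nucleolar RNA gene inside Jarid2 on the opposite strand, Gm22213, was listed at 0 in all 12 libraries.

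**Figure D1:**
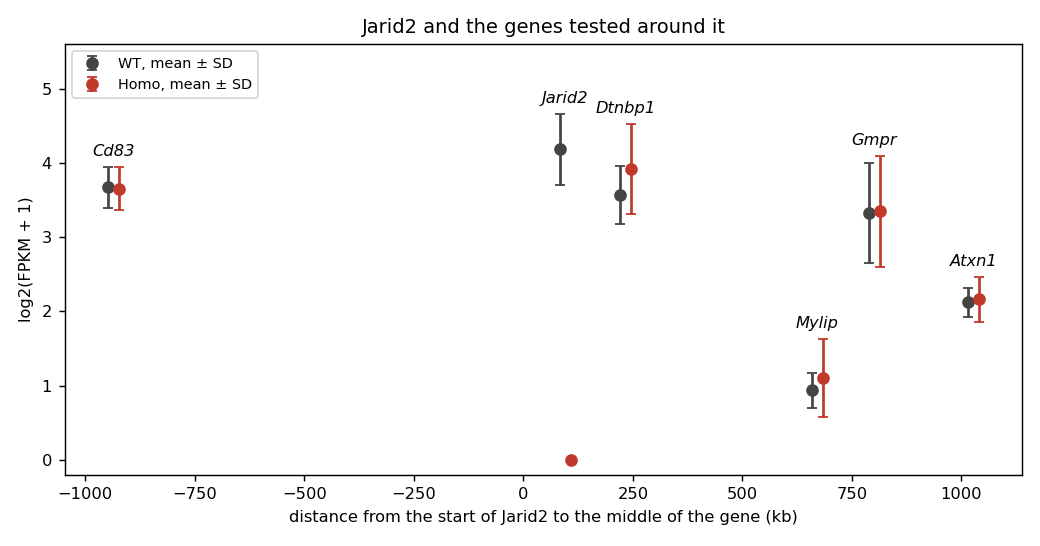
Mean ± SD of log2(FPKM + 1) in WT (grey, n = 5) and Homo (red, n = 7) against the distance in kb from the start of Jarid2 to the middle of each gene, for Jarid2 and the 5 tested genes around it. Jarid2 is the only gene of the 6 with its Homo libraries at 0, while the genotypes overlap for Dtnbp1 beside it.

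The partner subunits remained measurable in Homo. Of the 9, Phf19 alone had any library at 0, in 3 of 12, and the other 8 were above 0 in every library of both genotypes. These 8 passed the filter of a mean of at least 1 FPKM and were tested with limma on log2(FPKM + 1). None reached an adjusted p under 0.05, against 0.00713% of all genes tested. That share is 1 gene, Jarid2, which was chosen by its values in these libraries, so its passing is not counted as a result. None had an unadjusted p under 0.05 either, against 5.55% of all genes. Of the 8, 4 were higher and 4 lower in Homo, with a median log2 difference of 0.10 beside −0.01 over all genes tested. No partner separated the genotypes without overlap, which 0.221% of all genes tested did. The 95% intervals of the 8 log2 differences reached from −1.25 to 1.22, so that changes of up to about that size were not resolved for the least certain members.

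**Figure D2:**
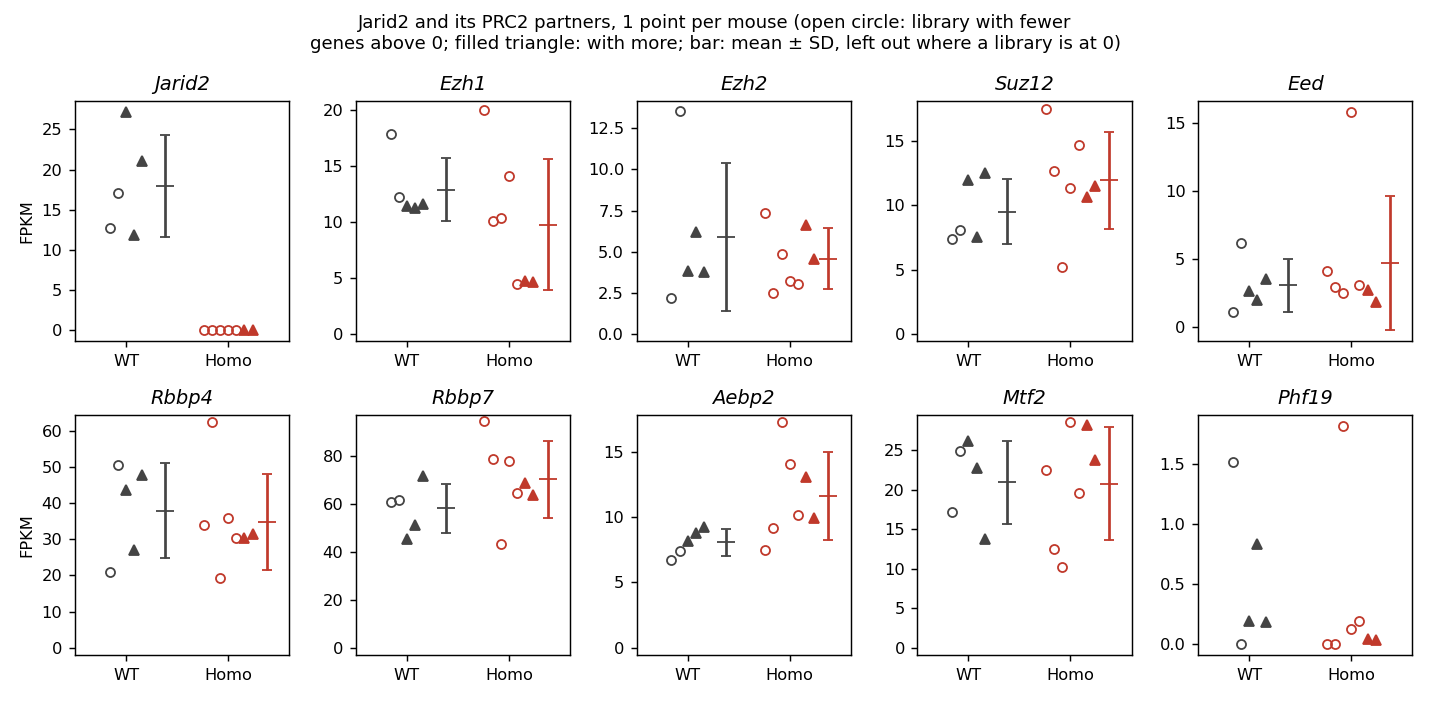
FPKM of Jarid2 and its 9 partners in each of 5 WT and 7 Homo libraries, with the mean ± SD beside each group unless a library of the group is at 0. Open circles are libraries with fewer genes above 0 and filled triangles those with more; Jarid2 lies at 0 in all 7 Homo libraries, and in the other 9 panels the genotypes overlap.

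Among the catalytic subunits, Ezh1 (chr11:101191115-101226463) stood at 17.9, 12.3, 11.5, 11.2 and 11.6 FPKM in WT 1 to 5. The values in Homo 1 to 7 were 20.03, 10.1, 10.4, 14.1, 4.45, 4.74 and 4.63 FPKM. Homo 5, 6 and 7 lay far below the WT libraries, 2 more lay just below the lowest of them, and Homo 1 lay above all. The means were 12.9 ± 2.83 (SD, n = 5) in WT and 9.78 ± 5.84 (SD, n = 7) in Homo, a log2 difference of −0.53 (SE 0.34, limma adjusted p = 0.915). With genotype also in the limma fit, Ezh1 differed by −0.73 on the log2 scale between the sets. Ezh1 was lower in the set with more genes above 0, which did not pass the test (limma adjusted p = 0.543, unadjusted p = 0.0353). Its genotype difference was −0.44 within the set with fewer and −1.13 within the set with more. The exact two-sided permutation test gave p = 0.189 over all libraries and p = 0.0667 with labels rearranged within sets.

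Ezh2 (chr6:47530139-47595341), the other catalytic subunit and the one usual in dividing cells, was lower. It stood at 2.22, 13.6, 3.83, 6.18 and 3.79 FPKM in WT 1 to 5. In Homo 1 to 7 the values were 7.37, 2.49, 4.89, 3.19, 3.01, 6.60 and 4.56 FPKM. Every Homo value lay inside the WT range, which WT 2 set at its upper end. The log2 difference was −0.17 (SE 0.35, limma adjusted p = 0.973); without WT 2 the WT mean fell from 5.91 to 4.00 FPKM and the log2 difference was 0.15.

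The proportion of the catalytic subunits varied among mice of 1 genotype more than between genotypes. Ezh1 exceeded Ezh2 in 10 of 12 libraries, 4 of 5 WT and 6 of 7 Homo. The FPKM ratio ran from 0.905 to 8.07 in WT, with a median of 3.00, and from 0.718 to 4.43 in Homo, with a median of 2.12. The log2 ratio of FPKM + 1 was 1.19 ± 0.98 (SD) in WT and 0.84 ± 0.85 in Homo. Its difference of −0.35 had p = 0.520 in the exact two-sided permutation test and p = 0.286 within library sets.

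**Figure D3:**
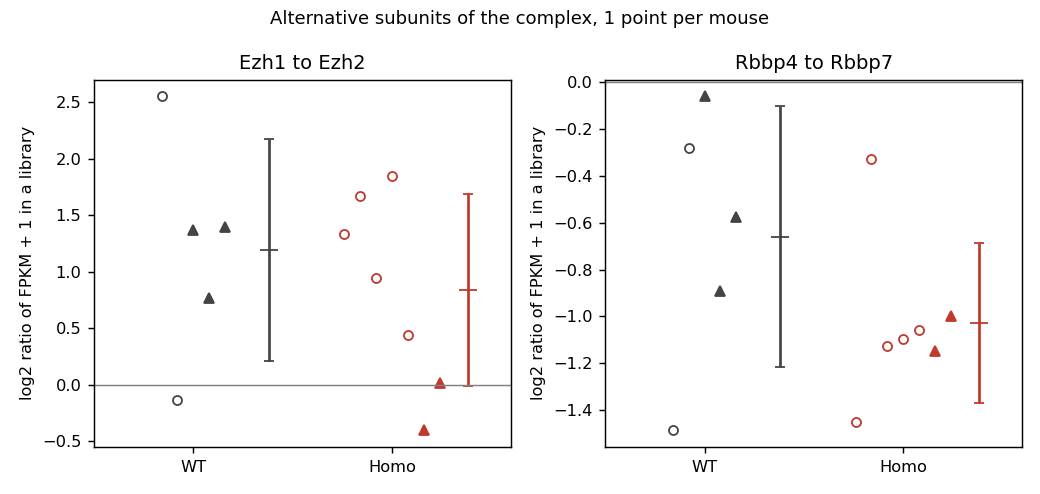
Log2 ratio of FPKM + 1 of Ezh1 to Ezh2 and of Rbbp4 to Rbbp7 in each library (open circles, fewer genes above 0; filled triangles, more), with mean ± SD by genotype; the grey line marks equal levels. Ezh1 was above Ezh2 in 10 of 12 libraries and Rbbp4 above Rbbp7 in 0 of 12, and the genotypes overlap in both panels.

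Of the structural core, the scaffold gene Suz12 (chr11:79993106-80034123) stood at 7.37, 8.05, 11.9, 7.57 and 12.5 FPKM in WT 1 to 5. Values of 17.5, 12.7, 5.24, 11.3, 14.7, 10.6 and 11.5 FPKM were listed in Homo 1 to 7. Homo libraries reached both the lowest and the highest values, and 6 of 7 lay above the WT median. The log2 difference was 0.27 (SE 0.26, limma adjusted p = 0.923).

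Eed (chr7:89954654-89980983), the reader of the methyl mark, stood at 1.11, 6.18, 2.66, 2.01 and 3.56 FPKM in WT 1 to 5. The 7 Homo libraries, in order, held 4.15, 2.94, 2.52, 15.8, 3.14, 2.77 and 1.85 FPKM. Homo 4 alone lay above the WT range, and the mean of the other 6 Homo libraries was 2.89 FPKM beside 3.10 ± 1.94 (SD, n = 5) in WT. The log2 difference over all libraries was 0.33 (SE 0.42, limma adjusted p = 0.937), and without Homo 4 it was 0.02.

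The histone-binding subunits were the most abundant members. Rbbp7 (chrX:162760402-162779092) stood at 60.7, 61.4, 45.4, 51.0 and 71.6 FPKM in WT 1 to 5. Homo 1 to 7 held 94.5, 78.4, 43.4, 77.8, 64.4, 68.5 and 63.6 FPKM. Of the Homo libraries 3 lay above the highest WT value and 1 below the lowest, and the log2 difference was 0.25 (SE 0.19, limma adjusted p = 0.915). Rbbp4 (chr4:129307100-129335370) stood at 21.03, 50.4, 43.5, 26.99 and 47.7 FPKM in WT 1 to 5. Homo 1 to 7 held 33.9, 62.2, 19.3, 35.9, 30.3, 30.4 and 31.3 FPKM. Its genotypes overlapped over most of the range (log2 difference −0.12, SE 0.28, limma adjusted p = 0.982). Rbbp4 was below Rbbp7 in all 12 libraries, at 0.346 to 0.958 of it in WT and 0.359 to 0.794 in Homo, and their log2 ratio differed by −0.37 between genotypes (exact two-sided permutation p = 0.182, and 0.281 within library sets). Without WT 1 this difference was −0.58 with an exact permutation p of 0.0303. Both proteins also serve other chromatin complexes, so their transcripts are not a measure of PRC2 alone.

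Among the accessory subunits, Aebp2 (chr6:140622663-140678472), which shares the JARID2 form of the complex, stood at 6.73, 7.42, 8.16, 8.75 and 9.26 FPKM in WT 1 to 5. In Homo 1 to 7 it stood at 7.48, 9.15, 17.3, 14.0, 10.1, 13.1 and 9.94 FPKM. Of the 7 Homo libraries 5 lay above every WT library and 2 lay inside the WT range. The means were 8.07 ± 1.01 (SD, n = 5) and 11.6 ± 3.38 (SD, n = 7), a log2 difference of 0.44 with a 95% interval from −0.02 to 0.89 (limma adjusted p = 0.899). The difference was 0.59 within the set with fewer genes above 0 and 0.35 within the set with more. The exact two-sided permutation test of Aebp2 alone gave p = 0.0379, and p = 0.0333 within library sets. Aebp2 was 1 of 9 partners looked at, and these permutation values were not adjusted for that. The limma test of Aebp2 gave an unadjusted p of 0.0574.

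The Polycomb-like subunits belong to the other form. Mtf2 (chr5:108065674-108109004) stood at 17.1, 24.9, 26.1, 22.8 and 13.8 FPKM in WT 1 to 5. Homo 1 to 7 held 22.5, 12.5, 10.2, 28.6, 19.6, 28.3 and 23.7 FPKM. The means of 20.95 ± 5.27 and 20.8 ± 7.19 FPKM (SD, n = 5 and 7) were close to each other, and the log2 difference was −0.06 with a 95% interval from −0.63 to 0.52 (limma adjusted p = 0.990). Phf19 (chr2:34893757-34914026) was the lowest member. It was listed at 1.51, 0, 0.188, 0.834 and 0.184 FPKM in WT 1 to 5. Homo 1 to 7 held 0, 0, 1.82, 0.127, 0.192, 0.0452 and 0.0296 FPKM. Its mean over all libraries of 0.411 FPKM was below the filter, so it was not tested with limma. The values of 0.0452 and 0.0296 FPKM were listed in Homo 6 and 7, which are in the set with more genes above 0. In Homo 1 to 5, of the other set, Phf19 was listed at 0 or at 0.127 FPKM and above.

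**Figure D4:**
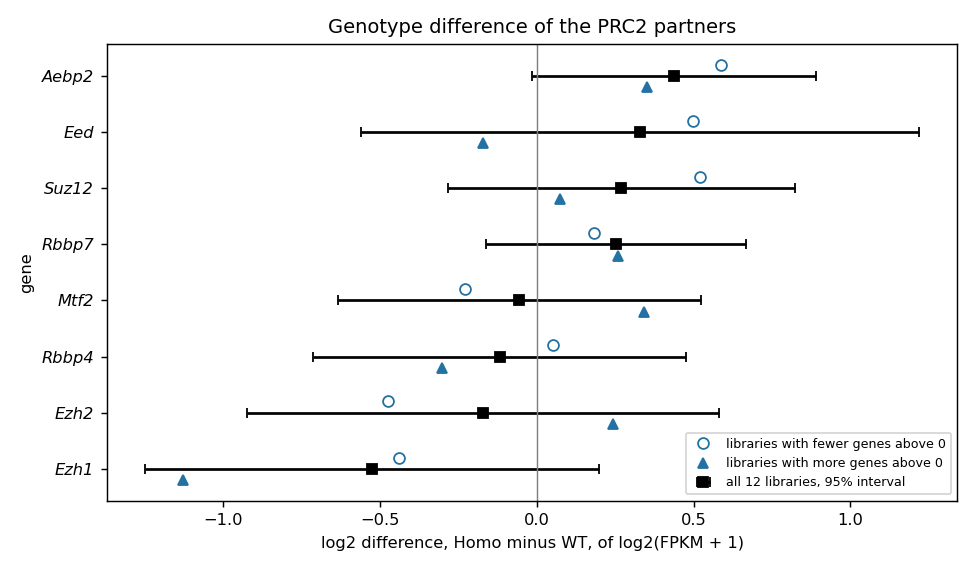
Log2 difference, Homo minus WT, of the 8 tested partners with its 95% interval over all 12 libraries (black), and within each library set (open circles, fewer genes above 0; filled triangles, more). All 8 intervals cross 0, and Ezh2, Eed, Rbbp4 and Mtf2 lie on opposite sides of 0 in the 2 sets.

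The genotype difference was not shown to vary with the library set for any of the 8 partners. The log2 differences had the same sign in both sets for 4 of 8, Ezh1, Suz12, Rbbp7 and Aebp2. The interaction of genotype with set had its lowest unadjusted p for Ezh1, 0.283 (limma adjusted p = 0.907).

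The partners were ordered by level over the 12 libraries, taken from the same libraries in which neighbours were then compared. In mean log2(FPKM + 1) the order was Rbbp7, Rbbp4, Mtf2, Suz12, Ezh1, Aebp2, Ezh2, Eed and Phf19. Rbbp7 exceeded Rbbp4 by 0.88 ± 0.46 (SD of the difference) and Rbbp4 exceeded Mtf2 by 0.75 ± 0.64, each in 12 of 12 libraries, with an exact sign-flip permutation p of 0.000488, the smallest that 12 libraries allow (adjusted p = 0.00195 over 8 neighbour pairs). Mtf2 lay above Suz12 by 0.87 ± 0.53 in 11 of 12 libraries. Suz12, Ezh1 and Aebp2 could not be ordered, since the steps between them were 0.05 ± 0.83 and 0.04 ± 0.87 (exact sign-flip adjusted p = 0.865 for both). Aebp2 was above Ezh2 by 0.94 ± 0.75 in 11 of 12 libraries (exact sign-flip adjusted p = 0.00391). The step from Ezh2 to Eed of 0.38 ± 0.88 did not hold up (exact sign-flip adjusted p = 0.217), and Eed exceeded Phf19 by 1.71 ± 1.11 in 11 of 12.

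In WT alone, where Jarid2 can be placed, its mean log2(FPKM + 1) of 4.18 ± 0.47 (SD, n = 5) came after Mtf2 at 4.42 ± 0.37 and before Ezh1 at 3.78 ± 0.26. Neither step was larger than the spread of Jarid2 between mice. Jarid2 thus stood above Aebp2, its partner in the same form, at 3.17 ± 0.16, by more than the SD of either.

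Other chromatin genes, of histone methylation and of related complexes, were taken from 9 fixed lists of 72 genes, of which 66 passed the filter. None of the 66 had an adjusted p under 0.05, and 4 (6.06%) had an unadjusted p under 0.05 beside 5.55% of all genes tested. In Homo 18 were higher and 48 (72.7%) lower, beside 50.7% lower over all genes tested. The lists share no gene with the members.

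The further PRC2 accessory genes gave 3 tested genes, 1 higher and 2 lower. Lcorl, which encodes a relative of the PRC2-binding protein PALI1, was at 17.5 ± 2.98 FPKM in WT and 19.9 ± 7.92 in Homo, and Phf1, the remaining Polycomb-like gene, at 10.7 ± 4.68 and 8.44 ± 5.66 (SD, n = 5 and 7). The H3K27 demethylase genes Kdm6a and Kdm6b, which encode the enzymes that remove the mark, had log2 differences of −0.23 and 0.00. Ep300 and Crebbp, which encode acetyltransferases of the same lysine, had −0.18 and 0.00. In the JARID1 family of H3K4 demethylases, the relatives of JARID2 by name and fold, 1 of 3 was higher and 2 were lower, with Kdm5a at 12.2 ± 3.04 and 11.8 ± 3.84 FPKM.

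Genes of PRC1, the complex that binds the PRC2 mark and ubiquitinates histone H2A, gave 20 tested genes, 4 higher and 16 lower in Homo, with a median log2 difference of −0.29. The median was −0.26 within the set with fewer genes above 0, where all genes had a median of −0.08, and −0.17 within the set with more, where all genes had 0.13. Scmh1 and Phc1 were the highest of them by mean. Scmh1 was at 23.3 ± 7.03 FPKM in WT and 26.2 ± 14.9 in Homo, and Phc1 at 32.0 ± 18.1 and 19.7 ± 17.4. The PR-DUB genes, which encode the deubiquitinase that opposes PRC1, were 1 higher and 8 lower with a median of −0.13, Hcfc1 and Mbd5 being the highest at 31.0 ± 3.44 and 30.9 ± 8.99 FPKM in WT and 29.6 ± 10.5 and 28.2 ± 5.01 in Homo. No gene of either list passed the test.

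The H3K9 methyltransferase genes Ehmt1 and Ehmt2 and their partner Wiz were lower in Homo in 3 of 3, with a median of −0.36 and a lowest limma adjusted p of 0.915. Of the 11 COMPASS-like genes, which encode the H3K4 methyltransferases that act against Polycomb, 2 were higher and 9 lower with a median of −0.20. Dpy30, a shared subunit and the highest of them, was at 26.7 ± 7.89 FPKM in WT and 35.6 ± 11.5 in Homo. The genes of other complexes that hold RBBP4 and RBBP7, such as the histone deacetylases and NuRD, were 7 higher and 6 lower with a median of 0.08, and their highest members Chd4 and Mta3 had log2 differences of −0.12 and 0.08.

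The 4 genes of unadjusted p under 0.05 were picked out once their values were known, and all were lower in Homo. Kmt2a, which encodes the methyltransferase MLL1, was at 18.2 ± 1.68 FPKM in WT and 13.0 ± 2.13 in Homo (log2 difference −0.47, limma adjusted p = 0.832). Men1, which encodes its partner menin, was at 32.8 ± 7.87 and 21.9 ± 5.33 FPKM (−0.56, limma adjusted p = 0.854). Kmt2b had a log2 difference of −0.88 (limma adjusted p = 0.899), which was −1.91 within the set with fewer genes above 0 and 0.12 within the set with more, WT 1 and WT 2 standing at 35.5 and 18.6 FPKM and the other WT libraries at 8.02 to 10.3. For the PRC1 gene Cbx8 the difference was −1.02 (limma adjusted p = 0.899). None of these passed the threshold over all genes.

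**Figure D5:**
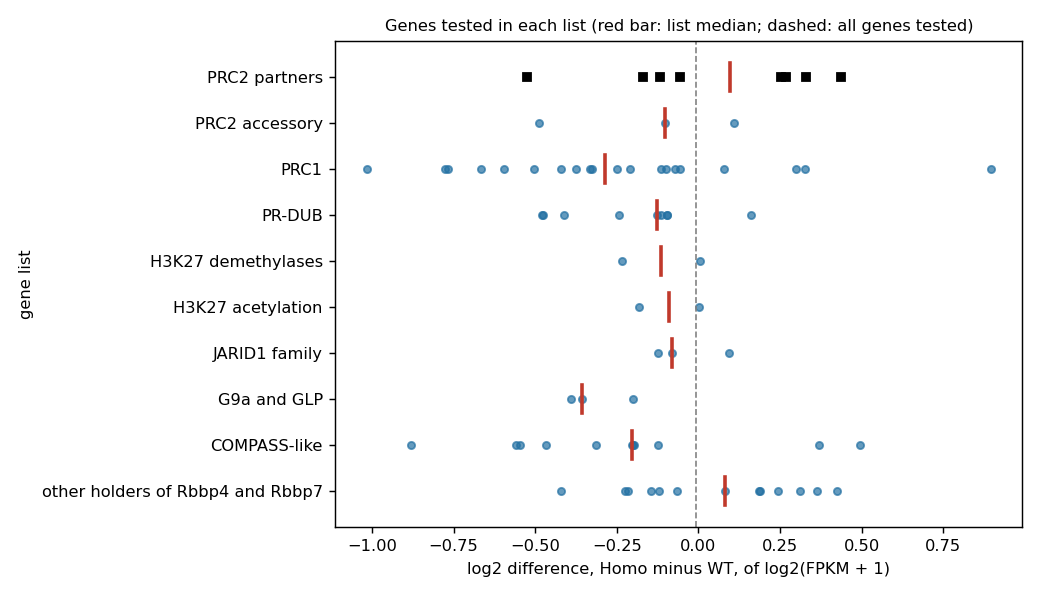
Log2 difference, Homo minus WT, of each tested PRC2 partner (black squares) and of each tested gene in 9 lists of related chromatin genes (blue points), with the median of each list (red bar) and of all genes tested (dashed line, −0.01). Medians run from −0.36 in the list of Ehmt1, Ehmt2 and Wiz to 0.10 in the PRC2 partners, and 0 of the genes plotted passed the adjusted threshold.

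Classic silent targets of PRC2 were at or near 0 in both genotypes. Of 39 Hox genes, 28 were listed at 0 in all 12 libraries and 0 reached a mean of 1 FPKM. The highest single value was 1.08 FPKM, Hoxa7 in WT 2. Their summed level in WT 1 to 5 was 0.844, 2.08, 0.0437, 0.0233 and 0.281 FPKM, and in Homo libraries it lay between 0 and 0.308 FPKM. WT 1 and WT 2 were above every Homo library and the other 3 WT libraries were inside the Homo range. Of 23 other developmental regulators and cell cycle inhibitors, 12 were at 0 in all libraries and 0 reached a mean of 1 FPKM. Their sum lay between 0.630 and 3.59 FPKM in WT libraries and between 0.155 and 2.13 FPKM in Homo libraries, and the highest single value was 3.02 FPKM, Gata2 in WT 3. Kiss1, an ARC target of the complex, was at 24.8 ± 12.9 FPKM in WT and 32.4 ± 11.5 in Homo (log2 difference 0.40, limma adjusted p = 0.919). That difference was 0.08 within the set with fewer genes above 0, 0.15 within the set with more and 0.11 with the set as a term.

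The 5 neuron markers were above 0 in every library, 3 higher and 2 lower in Homo (median log2 difference 0.01). The oligodendrocyte markers and the tanycyte and ependyma markers were not all above 0 in every library. Of 5 tanycyte and ependyma markers 2 were higher and 3 lower (median −0.02). Of 3 oligodendrocyte precursor markers 1 was higher and 2 were lower (median −0.26), and of 5 endothelium markers 4 were higher and 1 lower (median 0.19). The 8 arcuate neuron markers, among them Agrp, Npy and Pomc, summed to between 1284 and 4513 FPKM in WT and between 3405 and 5158 in Homo, and none was at 0. All 8 had a higher mean in Homo over all libraries (median log2 difference 0.43), but the median was −0.10 within the set with fewer genes above 0, 0.71 within the set with more and 0.30 with the set as a term. Pomc, for one, was at −0.72 and 1.41 within the sets. Agrp and Npy had an unadjusted p under 0.05 (limma adjusted p = 0.899 and 0.887). The Agrp difference of 0.60 was 0.30 with the set as a term. With genotype also in the fit, Agrp differed between the sets by −0.94, lower in the set with more genes above 0 (limma adjusted p = 0.0293). The 6 microglia markers summed to 28.0 to 44.8 FPKM in WT and 41.7 to 71.8 in Homo, and all were higher in Homo (median 0.38, and 0.46 and 0.54 within the sets), C1qa and Aif1 with an unadjusted p under 0.05 (limma adjusted p = 0.763 and 0.870). All 6 oligodendrocyte markers were higher too, with sums of 88.8 to 550 FPKM in WT and 153 to 403 in Homo, and of the 5 astrocyte markers 4 were. The 4 haemoglobin genes had a median of −0.67 over all libraries, of 0.12 and −0.26 within the sets and of 0.02 with the set as a term, with sums of 42.4 to 585 FPKM in WT and 46.7 to 354 in Homo. The 4 pituitary markers summed to between 0 and 113 FPKM in WT and between 0 and 55.6 in Homo. Tshb was at 0 in every Homo library, and also where a WT sum was 0. Of 8 genes of dividing cells, 2 reached a mean of 1 FPKM. Among these markers, Agrp, Npy, Pomc, C1qa, Aif1 and Tshb were named once their values were known. The part of these differences in the members' values was not tested. Prkag2 itself was at 14.6 ± 5.43 FPKM in WT and 14.8 ± 4.88 in Homo (log2 difference 0.03, limma adjusted p = 0.993); the mutation changes a residue, so this level does not check the genotype labels.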

How the data were processed

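RNA of the laser-captured ARC of 5 WT and 7 Homo mice was amplified by a whole-transcriptome kit before sequencing. The authors deposited 1 table of FPKM values for 38283 genes, and 0 of its columns belonged to no sample. The submitters' processing notes name TopHat2 2.0.8, Cufflinks 2.2.1 and GRCm38. The sum of a library's values ranged from 13306604 to 21188486 FPKM. The values are not counts, and a step expected of whole fragments held only 2.37% to 8.19% of the low values, so the fragments behind a value are taken as unknown and no counting interval is given.

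Values were taken as log2(FPKM + 1), a scale that understates changes of low genes. The 14017 genes with a mean of at least 1 FPKM were fitted in R 4.3.3 with limma 3.58.1 (lmFit and eBayes, both trend and robust switched on) on genotype alone, with Benjamini-Hochberg adjustment over all of them. Single genes and ratios were compared by exact two-sided permutation over 792 arrangements (smallest p 0.00126), or 210 within library sets (smallest p 0.00476). The limma step was tested on simulated data. Alternatives covered the pseudocount, the low-value filter, normalization, array weights, the library set, the replicate number and libraries left out.

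Members and lists were chosen with earlier results of these data known. Named genes are the members, the 2 highest of each list by mean and those past the threshold; others are marked as singled out afterwards. Positions are from GENCODE mouse 21, which holds 97.5% of the tested identifiers, and promoter windows from RefSeq. Separate mice give the spread in every test.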

Additional observations from a re-analysis of the deposited data

Results flagged for a closer look

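Within the 10 members and the 2 subunit ratios, 23 groups of libraries were looked at for a sample far from the others. Of these, 5 met the rule used. Chance alone meets it in about 1 group in 20 only where values are normally distributed, which was not shown for FPKM. Ezh1 was highest in WT 1 at 17.9 FPKM, beside 11.2 to 12.3 FPKM in the other 4 WT libraries. Eed was highest in Homo 4 at 15.8 FPKM, and the other 6 Homo libraries had a mean of 2.89 FPKM. Rbbp4 was highest in Homo 2 at 62.2 FPKM, and the log2 ratio of Rbbp4 to Rbbp7 was highest in the same library at −0.33. Phf19 was highest in Homo 3 at 1.82 FPKM, beside at most 0.192 FPKM in the other Homo libraries. All but the WT 1 value came from Homo libraries, and all 5 from libraries with fewer genes above 0.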

How the results depend on the processing

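Over the alternatives the number of partners past the threshold was 0 throughout, and the lowest adjusted p of any partner was 0.622. Of 184 partner values under alternatives, 171 kept their direction and 13 reversed, none past the threshold. Ezh2 became 0.15 without WT 2 and 0.24 in the set with more genes above 0 alone. Eed became −0.17 in that set, and Mtf2 0.34. Mtf2 also became 0.032 with the library set as a term, 0.069 with array weights, and ranged from −0.19 to 0.091 with 1 library left out. Rbbp4 became 0.053 in the set with fewer genes alone and ranged from −0.30 to 0.0052 with 1 library left out, and Ezh2 from −0.40 to 0.15.

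The Ezh1 to Ezh2 difference reversed to 0.057 with Homo 1 to 5 only and 0.038 in the set with fewer genes alone, and lay between −0.69 and −0.014 with 1 library left out. In the set with more genes alone it was −1.37 (exact two-sided permutation p = 0.1). The Rbbp4 to Rbbp7 difference lay between −0.58 and −0.22 with 1 left out, passing 0.05 without WT 1. The number of all genes past the threshold was 1 to 3 with 1 library left out (3 without WT 2, 2 without Homo 4), 4 with Homo 1 to 5 only, 6 in the set with fewer genes alone and 19 in the set with more. The cause of these changes was not tested.

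Libraries that share a replicate number did not deviate together (residual correlations across genes −0.05 to 0.03). With the replicate block 2 genes passed in place of 1, 0 of them partners, and the Ezh1 to Ezh2 difference was 0.057. Numbers 6 and 7 had no WT library, so the genotype differences of the block came from Homo 1 to 5 against WT. With 5 and 7 mice, differences within the 95% intervals given for each partner were not resolved.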
